A study of Mus musculus with 21 samples.

Results

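The Mediator complex genes were all gene symbols of the count table made of Med, a number and an optional l, together with *Cdk8*, *Cdk19* and *Ccnc*. Of 23412 symbols, 33 met this rule, and all 33 passed the filter on low counts. They were taken by module, with 11 genes of the head, 9 of the middle, 1 scaffold gene (*Med14*), 5 of the tail and 7 of the kinase module. Mediator is the large coactivator that carries signals from DNA-bound activators to RNA polymerase II at promoters. Its head and middle contact the polymerase, its tail contacts activators, and its kinase module binds reversibly and competes with polymerase binding. In mouse embryonic stem cells Mediator, cohesin and the cohesin loader occupy many of the same enhancers and promoters.

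The libraries were poly-A RNA-seq of male v6.5 mouse embryonic stem cells grown on gelatin and harvested 48 h after transfection with 50 nM siRNA. The libraries formed 7 groups of 3: wild-type cells (WT) with siGLO, a transfection control, or with siPds5b; *Pds5a* knockout cells (Pds5a-KO) with siGLO, siPds5b, siStag1 or siStag2; and *Pds5b* knockout cells (Pds5b-KO) with siGLO. Each knockout was 3 replicates of a single CRISPR clone, so clone and genotype cannot be told apart. Summed counts ran from 17311090 to 23989198 per library, with group medians of 23283401 for WT siGLO, 17835821 for WT siPds5b, 20327839 for Pds5a-KO siGLO, 19535977 for Pds5b-KO siGLO, and 19421506, 20036207 and 19554088 for Pds5a-KO with siPds5b, siStag1 and siStag2.

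The targeted genes were read first as a check of the labels. *Pds5b* had 2354, 2019 and 2285 normalized counts in WT siGLO, 686.7, 839.4 and 802.4 in WT siPds5b and 277.6, 312.1 and 237.8 in Pds5b-KO siGLO. Every siPds5b and Pds5b-KO library lay below every WT siGLO library. The *Pds5b* log2 fold change was -1.52 (standard error 0.114, edgeR adjusted p = 4.93e-08) for siPds5b in WT cells. In Pds5a-KO cells it was -1.39 (standard error 0.113, edgeR adjusted p = 2.3e-08) for siPds5b. *Stag1* had 617.2, 600.1 and 506.3 normalized counts with siStag1 against a Pds5a-KO siGLO mean of 2428 ± 118, a log2 fold change of -2.08 (standard error 0.0878, edgeR adjusted p = 5.54e-14). *Stag2* had 851.1, 953.9 and 820.6 with siStag2 against 3256 ± 316, a log2 fold change of -1.90 (standard error 0.104, edgeR adjusted p = 3.48e-11). *Pds5a* transcript was still counted in the *Pds5a* knockout, at 4786, 3788 and 4239 normalized counts against 5059 ± 295 in WT siGLO, and these counts do not show whether protein is made.

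Levels were compared between members as normalized counts per kilobase of merged exons in WT siGLO. *Med19* (581 ± 29.9, mean ± SD of 3 libraries), *Med30* (580.5 ± 48.3) and *Med6* (539 ± 6.94) were the highest. The lowest were *Med12l* (9.967 ± 2.38), *Med15* (70.75 ± 3.14) and *Cdk19* (73.15 ± 5.94). The highest and lowest members lay 58.3-fold apart, or 8.21-fold apart without *Med12l*. Module medians were 278.2 for the head, 208.8 for the middle, 152.7 for the scaffold gene, 189.2 for the tail and 134.1 for the kinase module. Neighbours in this order overlapped in their libraries for 24 of 32 pairs. Per kilobase of the longest transcript instead, 10 members moved by at least 5 places, among them *Med15* (237) and *Cdk8* (482.8), so the order near those members rests on which transcript is made.

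Members were counted as called where edgeR's quasi-likelihood test gave a Benjamini-Hochberg adjusted p below 0.01, and p-values measure only the spread between these samples, which may be technical because the sources used here call replicates biological without saying whether they were separate cultures. These were bulk libraries, in which fewer cells of a type and less RNA per cell cannot be told apart. The 5 comparisons of a knockout group with WT siGLO share those 3 control libraries, and the 3 siRNA comparisons within Pds5a-KO share its siGLO libraries. Across 12 comparisons 18 members were called at least once and 15 in none. These counts are not set against all tested genes, of which single comparisons called up to 32%, so they do not show many or few. *Med12l* was called in 6 comparisons, *Med16* in 5, *Med14* in 4 and *Med17* in 3.

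**Figure D1:**
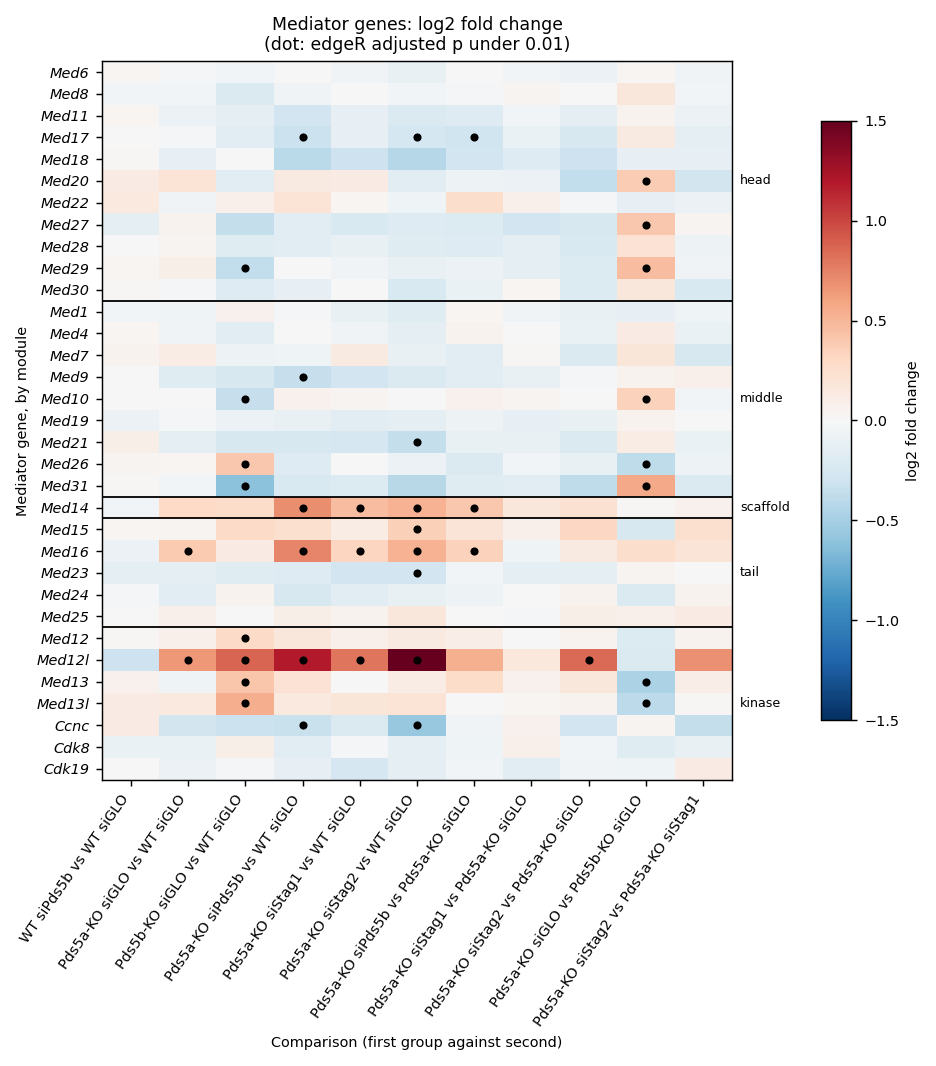
Heat map of the log2 fold change of the 33 Mediator genes (vertical axis, by module) in 11 comparisons (horizontal axis), coloured from -1.5 to 1.5. Dots mark edgeR adjusted p below 0.01, from 0 genes for siPds5b in WT cells to 8 genes each for Pds5b-KO against WT, siStag2 in Pds5a-KO against WT and Pds5a-KO against Pds5b-KO.

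With siPds5b in WT cells, 1 of 14963 tested genes was called in all. By edgeR 0 of the 33 members were called, against 0.00668% of all tested genes; 0 had unadjusted p below 0.05, and DESeq2 also called 0. The median log2 fold change was 0.0125 over members and 0.00173 over all genes, and single members lay between -0.31 and 0.14.

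In Pds5a-KO siGLO against WT siGLO the called members were *Med16* of the tail and *Med12l* of the kinase module, both higher. Of the 33, 2 were called higher and 0 lower by edgeR, or 6.06%, against 17.8% of all tested genes (9.63% higher and 8.12% lower). DESeq2 called 2, against 20.5% of all tested genes, and 6 members had unadjusted p below 0.05. The median log2 fold change was -0.0288 over members and 0.0021 over all genes. The count was 1 without replicate 1 or 3 of WT siGLO or replicate 1 or 3 of Pds5a-KO siGLO. The shares of all tested genes in those fits were, in order, 13.1%, 11.8%, 17% and 12.6%.

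In Pds5b-KO siGLO against WT siGLO, 4 of 7 kinase-module genes were called higher, 1 of 11 head genes lower, and 1 of 9 middle genes higher and 2 lower. In all 5 members were called higher and 3 lower by edgeR, 24.2% of members, against 18.2% of all tested genes (9.64% higher and 8.57% lower). DESeq2 called 10. The median log2 fold change was -0.0747 over members and -0.00288 over all genes. Of 8 called, 2 remained without replicate 2 of WT siGLO, and 3 without replicate 3 of WT siGLO or replicate 1 or 2 of Pds5b-KO siGLO. The shares of all tested genes in those fits were, in order, 12.4%, 12.2%, 12.1% and 11.2%. Members then lay below these shares, where with all libraries they lay above. Without replicate 1 of WT siGLO 6 members were called, against 13.6% of all tested genes. Without replicate 3 of Pds5b-KO siGLO 8 were called, against 17.2%. In both of these fits members still lay above.

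With siPds5b in Pds5a-KO cells, against WT siGLO, 3 members were called higher and 3 lower by edgeR, 18.2% of members, against 32% of all tested genes (17.4% higher and 14.6% lower). Median log2 fold changes were -0.0617 over members and -0.0013 over all genes. No single library moved this count by more than 1.5-fold. With siStag1 in Pds5a-KO cells, against WT siGLO, 3 were called higher and 0 lower by edgeR, 9.09% of members, against 20% of all tested genes (10.6% higher and 9.37% lower). Here 12 members had unadjusted p below 0.05, and DESeq2 called 4, against 22.7% of all tested genes. Medians were -0.0528 over members and 0.00125 over all genes. Of the 3 called, 1 remained without replicate 2 or 3 of WT siGLO. Without replicate 2 of Pds5a-KO siStag1 none of them remained, and 1 other member was called lower. The shares of all tested genes in these fits were, in order, 15.4%, 14.3% and 14%. With siStag2 in Pds5a-KO cells, against WT siGLO, 4 were called higher and 4 lower by edgeR, 24.2% of members, against 30.1% of all tested genes (16.2% higher and 13.9% lower). Medians were -0.132 over members and -0.00264 over all genes, the largest shift of the member median in any comparison. The count was 5 without replicate 1 or 3 of WT siGLO and 4 without replicate 1 of Pds5a-KO siStag2. In those fits 23.2%, 23.1% and 22.4% of all tested genes were called.

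The siRNA groups were also compared within Pds5a-KO cells. With siPds5b, against Pds5a-KO siGLO, 2 were called higher and 1 lower by edgeR, 9.09% of members, against 7.59% of all tested genes (4% higher and 3.59% lower). That count was 1 without replicate 1 or 2 of Pds5a-KO siGLO or replicate 2 or 3 of Pds5a-KO siPds5b. In those fits 4.54% to 5.51% of all tested genes were called. By edgeR the count was 0 without replicate 3 of Pds5a-KO siGLO, against 6.24% of all tested genes. It was 0 by edgeR in a model of only the groups compared, against 3.66%. With all libraries 8 had unadjusted p below 0.05 and DESeq2 called 3, against 10% of all tested genes. With siStag1, against Pds5a-KO siGLO, edgeR called 0 members, against 0.0936% of all tested genes; 1 had unadjusted p below 0.05 and DESeq2 called 0. With siStag2, against Pds5a-KO siGLO, 1 was called higher and 0 lower by edgeR, 3.03% of members, against 2.24% of all tested genes (0.969% higher and 1.27% lower); 13 had unadjusted p below 0.05 and DESeq2 called 2. That count was 0 by edgeR without replicate 1 or 2 of Pds5a-KO siGLO or replicate 1 or 3 of Pds5a-KO siStag2. In those fits 0.448% to 1.04% of all tested genes were called. Median log2 fold changes over members were -0.0502, -0.0352 and -0.101 for siPds5b, siStag1 and siStag2, against -0.000382, -0.00645 and 0.00779 over all genes.

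The 2 knockouts were also compared directly. In Pds5a-KO siGLO against Pds5b-KO siGLO, 5 were called higher and 3 lower by edgeR, 24.2% of members, against 19.2% of all tested genes (9.74% higher and 9.46% lower). The median log2 fold change was 0.05 over members and 0.0238 over all genes. This count depended on single libraries: it was 2 without replicate 1 or 2 of Pds5a-KO siGLO, 5 without its replicate 3 and 3 without replicate 2 of Pds5b-KO siGLO. The shares of all tested genes in those fits were, in order, 17.2%, 11.3%, 15.3% and 12.5%. Without replicate 1 of Pds5b-KO siGLO edgeR called 0, against 12.1% of all tested genes, with 12 members at unadjusted p below 0.05. In a model of only these groups 1 was called, against 12.8% of all tested genes. In each of these fits the share of members lay below that of all tested genes. Without replicate 3 of Pds5b-KO siGLO 8 were called, against 17.7%, and the share of members lay above.

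Neither siStag2 against siStag1 nor the interaction gave a called member. In siStag2 against siStag1 within Pds5a-KO, edgeR called 0 of 33, against 0.394% of all tested genes, with 7 at unadjusted p below 0.05; DESeq2 called 1. The interaction, which asks whether siPds5b moved a gene differently in Pds5a-KO and WT cells, gave 0 of 33 by edgeR, against 1.48% of all tested genes, with 4 at unadjusted p below 0.05; DESeq2 called 0.

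In the head, *Med17*, the subunit around which the head is built, had 1860, 1699 and 1925 normalized counts in WT siGLO and 1902, 1742 and 1758 in Pds5a-KO siGLO. It had 1561, 1460 and 1358 with siPds5b and 1430, 1559 and 1593 with siStag2 in Pds5a-KO cells. All 6 of these siRNA libraries lay below all 6 siGLO libraries. With siPds5b the *Med17* log2 fold change was -0.33 (standard error 0.0749, edgeR adjusted p = 0.00108) against WT siGLO. Against Pds5a-KO siGLO it was -0.30 (standard error 0.075, edgeR adjusted p = 0.00713) for siPds5b. With siStag2 it was -0.26 (standard error 0.0749, edgeR adjusted p = 0.00706) against WT siGLO. The *Med17* call for siPds5b against Pds5a-KO siGLO was lost without replicate 1, 2 or 3 of Pds5a-KO siGLO or replicate 2 or 3 of Pds5a-KO siPds5b (log2 fold change -0.33 to -0.25, edgeR adjusted p 0.0143 to 0.0483), and with RLE normalization and in a model of only the groups compared. For siStag2 against WT siGLO the *Med17* call was lost without replicate 1 or 3 of WT siGLO or replicate 1 or 2 of Pds5a-KO siStag2 (log2 fold change -0.28 to -0.22, edgeR adjusted p 0.0128 to 0.0451), and in a model of only the groups compared. No single library ended the *Med17* call for siPds5b against WT siGLO, but leaving replicate 3 out of every group did (log2 fold change -0.24, edgeR adjusted p = 0.0516).

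*Med29*, a metazoan subunit between head and tail, had 580, 626.3 and 540 normalized counts in WT siGLO, 698.8, 632.2 and 529.1 in Pds5a-KO siGLO and 431.7, 434.7 and 481.5 in Pds5b-KO siGLO. Pds5b-KO libraries were the lowest, with no overlap with either other group. Its log2 fold change was -0.37 (standard error 0.102, edgeR adjusted p = 0.00753) in Pds5b-KO against WT siGLO. In Pds5a-KO against Pds5b-KO it was 0.46 (standard error 0.101, edgeR adjusted p = 0.00126). The *Med29* call against WT siGLO was lost without replicate 1, 2 or 3 of WT siGLO or replicate 1 or 2 of Pds5b-KO siGLO (log2 fold change -0.41 to -0.31, edgeR adjusted p 0.0112 to 0.0501), and with no filter on low counts and with at least 10 counts required in every library. The *Med29* call between the knockouts was lost without replicate 1 of Pds5a-KO siGLO or replicate 1 of Pds5b-KO siGLO (log2 fold change 0.35 to 0.42, edgeR adjusted p 0.0108 to 0.0156), and in a model of only the groups compared. *Med27*, which sits beside *Med29* in the complex, had 427.9, 443.8 and 439.9 in WT siGLO, 475.4, 426.5 and 454.9 in Pds5a-KO siGLO and 296.6, 346 and 382.4 in Pds5b-KO siGLO. The Pds5b-KO libraries were again below both other groups, and the log2 fold change between the knockouts was 0.40 (standard error 0.104, edgeR adjusted p = 0.00488). In Pds5b-KO against WT siGLO *Med27* was not called, at -0.35 (edgeR adjusted p = 0.0121). It passed the threshold with DESeq2 (DESeq2 adjusted p = 0.00877) and without replicate 3 of Pds5b-KO siGLO (-0.43, edgeR adjusted p = 0.00701). The *Med27* call between the knockouts was lost without replicate 1, 2 or 3 of Pds5a-KO siGLO or replicate 1 or 2 of Pds5b-KO siGLO (log2 fold change 0.29 to 0.43, edgeR adjusted p 0.0106 to 0.0549), and in a model of only the groups compared.

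*Med20*, which forms a movable pair with *Med18* in the head, had 767.9, 701.5 and 716.1 normalized counts in Pds5a-KO siGLO and 472.9, 559.3 and 643.6 in Pds5b-KO siGLO. WT siGLO had 648.8, 592.5 and 645.8, below Pds5a-KO siGLO and overlapping Pds5b-KO siGLO. The libraries of the 2 knockouts did not overlap, and the log2 fold change between them was 0.38 (standard error 0.0955, edgeR adjusted p = 0.00383). The *Med20* call was lost without replicate 1, 2 or 3 of Pds5a-KO siGLO or replicate 1 or 2 of Pds5b-KO siGLO (log2 fold change 0.26 to 0.39, edgeR adjusted p 0.0112 to 0.0522), and in a model of only the groups compared. With siStag2 *Med20* had 571.9, 584.7 and 539.6. Against Pds5a-KO siGLO it was not called by edgeR, at -0.37 (edgeR adjusted p = 0.0199), but was by DESeq2 (DESeq2 adjusted p = 0.00585). The other 7 head genes were called in no comparison. Their group means ran from 724.6 to 798.1 for *Med6*, 720.9 to 835.6 for *Med8*, 364.3 to 453.4 for *Med11*, 285.6 to 388.7 for *Med18*, 684.2 to 827 for *Med22*, 967.3 to 1131 for *Med28* and 585.8 to 698.2 for *Med30*. With siStag2 all 11 head genes had a negative log2 fold change against WT siGLO and against Pds5a-KO siGLO, with medians of -0.186 and -0.203; short transcripts were lower in general in both comparisons, as given with gene length below.

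In the middle, *Med31*, a small subunit near the polymerase contact, had 327.4, 376.2 and 363 normalized counts in WT siGLO, 338.2, 375 and 319 in Pds5a-KO siGLO and 185.8, 224.3 and 286.3 in Pds5b-KO siGLO. All 3 Pds5b-KO libraries lay below the other 6, although they differed among themselves. The *Med31* log2 fold change was -0.61 (standard error 0.145, edgeR adjusted p = 0.00265) in Pds5b-KO against WT siGLO. Between the knockouts it was 0.57 (standard error 0.146, edgeR adjusted p = 0.0047). The *Med31* call against WT siGLO was lost without replicate 2 or 3 of WT siGLO or replicate 1 or 2 of Pds5b-KO siGLO (log2 fold change -0.59 to -0.46, edgeR adjusted p 0.0125 to 0.0276). The *Med31* call between the knockouts was lost without replicate 1 or 2 of Pds5a-KO siGLO or replicate 1 or 2 of Pds5b-KO siGLO (log2 fold change 0.41 to 0.56, edgeR adjusted p 0.0111 to 0.0495), and in a model of only the groups compared. With siStag2 the libraries were 223.5, 345.1 and 229.9, with replicate 2 at the WT level, and the log2 fold change against WT siGLO was -0.42 (edgeR adjusted p = 0.0215), which was not called. Without that replicate it was -0.65 and was called (edgeR adjusted p = 0.000723).

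*Med10*, a middle subunit of the hook by which the middle meets the scaffold, had 710.6, 779.5 and 810.4 normalized counts in WT siGLO, 801.4, 796.9 and 699.7 in Pds5a-KO siGLO and 519.3, 650 and 636.8 in Pds5b-KO siGLO. No Pds5b-KO library reached either other group, and *Med10* was at -0.35 (standard error 0.0957, edgeR adjusted p = 0.00787) in log2 fold change in Pds5b-KO against WT siGLO. Between the knockouts *Med10* was at 0.35 (standard error 0.0958, edgeR adjusted p = 0.00773). Against WT siGLO the *Med10* call was lost without replicate 2 or 3 of WT siGLO or replicate 1 or 3 of Pds5b-KO siGLO (log2 fold change -0.37 to -0.24, edgeR adjusted p 0.0116 to 0.08), and with no filter on low counts, with at least 10 counts required in every library and in a model of only the groups compared. The *Med10* call between the knockouts was lost without replicate 1 or 2 of Pds5a-KO siGLO or replicate 1 or 3 of Pds5b-KO siGLO (log2 fold change 0.23 to 0.36, edgeR adjusted p 0.0133 to 0.0891), and with RLE normalization, with scaling by library size only, with at least 10 counts required in every library and in a model of only the groups compared. *Med26*, the subunit that recruits elongation factors, had 531, 433.7 and 553.2 in WT siGLO, 497.7, 564 and 487.7 in Pds5a-KO siGLO and 667.1, 686.9 and 663 in Pds5b-KO siGLO. Here the Pds5b-KO libraries were the highest, without overlap. *Med26* was at 0.41 (standard error 0.0974, edgeR adjusted p = 0.00283) in log2 fold change in Pds5b-KO against WT siGLO. Between the knockouts *Med26* was at -0.38 (standard error 0.0975, edgeR adjusted p = 0.00461). Against WT siGLO the *Med26* call was lost without replicate 2 of WT siGLO or replicate 2 of Pds5b-KO siGLO (log2 fold change 0.32 to 0.39, edgeR adjusted p 0.0151 to 0.0252). The *Med26* call between the knockouts was lost without replicate 1 or 3 of Pds5a-KO siGLO or replicate 1 or 2 of Pds5b-KO siGLO (log2 fold change -0.40 to -0.36, edgeR adjusted p 0.0112 to 0.018), and in a model of only the groups compared. *Med26* lies on chromosome 8, where the median log2 fold change of 729 tested genes was 0.297 in Pds5b-KO against WT siGLO, with 83.5% of them above 0, and -0.479 between the knockouts. A chromosome-wide shift and regulation of *Med26* alone cannot be told apart here.

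Exons of several called members overlap another gene, and reads of such pairs cannot be told apart without strand. On the other strand *Med10* shares 4168 of its 4491 exon bases with Gm26819, *Med31* 455 of 1730 with 4930563E22Rik, *Med20* 1569 with Kpna2-ps, *Med13* 800 with Brip1os, *Med26* 381 with Gm17435, and *Med21* 348 with Gm6654 and 197 with *Tm7sf3*. On the same strand *Med12* shares 749 bases with Gm21986 and *Med20* 513 with Gm20517. Whether these genes added to the counts was not tested.

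*Med9*, a middle subunit, had 642.8, 807.7 and 770.7 normalized counts in WT siGLO and 515, 610.5 and 614.9 with siPds5b in Pds5a-KO cells. The groups did not overlap, and the *Med9* log2 fold change was -0.35 (standard error 0.0992, edgeR adjusted p = 0.00586). The *Med9* call was lost without replicate 2 or 3 of WT siGLO or replicate 1 of Pds5a-KO siPds5b (log2 fold change -0.32 to -0.28, edgeR adjusted p 0.0258 to 0.0349), and with scaling by library size only and in a model of only the groups compared. *Med21*, which pairs with *Med7* at the hinge of the middle, had 635, 576.8 and 626 in WT siGLO and 452.9, 506.7 and 481.3 with siStag2. Again no libraries overlapped, and the *Med21* log2 fold change was -0.35 (standard error 0.084, edgeR adjusted p = 0.00161). The *Med21* call was lost without replicate 1 of Pds5a-KO siStag2 (log2 fold change -0.31, edgeR adjusted p 0.0114). *Med1*, the contact of nuclear receptors, was called nowhere and had its lowest mean with siStag2 (1726, 1563 and 1564), against a WT siGLO mean of 1828 ± 43.6, at -0.18 (edgeR adjusted p = 0.0712) in log2 fold change. Group means of the remaining middle genes, called in no comparison, ran from 985.1 to 1134 for *Med4*, 882.1 to 1044 for *Med7* and 1073 to 1196 for *Med19*.

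The scaffold gene *Med14*, whose product ties head, middle and tail together, had 1311, 1209 and 1494 normalized counts in WT siGLO, 1227, 1222 and 1468 in WT siPds5b and 1838, 1448 and 1642 in Pds5a-KO siGLO. It had 2385, 2205 and 1933 with siPds5b, 1855, 1948 and 1733 with siStag1 and 2123, 1845 and 1797 with siStag2 in Pds5a-KO cells. Every library of these 3 siRNA groups lay above every WT library, and the siPds5b libraries also lay above every Pds5a-KO siGLO library. Pds5a-KO siGLO overlapped WT siGLO. With siPds5b the *Med14* log2 fold change was 0.70 (standard error 0.103, edgeR adjusted p = 7.82e-06) against WT siGLO. With siStag1 it was 0.46 (standard error 0.103, edgeR adjusted p = 0.00134) against WT siGLO. With siStag2 it was 0.52 (standard error 0.103, edgeR adjusted p = 0.000289) against WT siGLO. Against Pds5a-KO siGLO it was 0.40 (standard error 0.102, edgeR adjusted p = 0.00837) for siPds5b. No single library ended the *Med14* calls for siPds5b or siStag2 against WT siGLO, but leaving replicate 1 out of every group ended that for siStag2 (log2 fold change 0.42, edgeR adjusted p = 0.0153). For siStag1 against WT siGLO the *Med14* call was lost without replicate 2 of WT siGLO or replicate 2 of Pds5a-KO siStag1 (log2 fold change 0.39 to 0.42, edgeR adjusted p 0.0108 to 0.0141). For siPds5b against Pds5a-KO siGLO the *Med14* call was lost without replicate 2 or 3 of Pds5a-KO siGLO or replicate 1 or 2 of Pds5a-KO siPds5b (log2 fold change 0.32 to 0.41, edgeR adjusted p 0.0252 to 0.0707), and with no filter on low counts and in a model of only the groups compared. Neither knockout alone gave a called change, with 0.29 (edgeR adjusted p = 0.0341) in Pds5a-KO and 0.27 (edgeR adjusted p = 0.0477) in Pds5b-KO, where *Med14* had 1723, 1662 and 1466. *Med14* lies on the X chromosome, where the median log2 fold change of 507 genes with siPds5b in Pds5a-KO cells was 0.101 against WT siGLO.

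In the tail, *Med16* had 711.5, 661.2 and 664.8 normalized counts in WT siGLO, 642.9, 653 and 617.6 in WT siPds5b and 842, 937.1 and 885.8 in Pds5a-KO siGLO. It had 1040, 1070 and 1274 with siPds5b, 834.2, 870.1 and 850.4 with siStag1 and 993.6, 942.4 and 991.3 with siStag2 in Pds5a-KO cells, and 798, 756.7 and 674.6 in Pds5b-KO siGLO. All 12 Pds5a-KO libraries lay above all 6 WT libraries, and the siPds5b and siStag2 libraries also lay above Pds5a-KO siGLO. Against WT siGLO the *Med16* log2 fold change was 0.39 (standard error 0.0824, edgeR adjusted p = 0.00101) in Pds5a-KO siGLO. With siPds5b it was 0.73 (standard error 0.0821, edgeR adjusted p = 1.48e-07) against WT siGLO. With siStag1 the *Med16* value was 0.33 (standard error 0.0826, edgeR adjusted p = 0.0039) against WT siGLO. With siStag2 it was 0.52 (standard error 0.0824, edgeR adjusted p = 2.17e-05) against WT siGLO. Against Pds5a-KO siGLO, siPds5b gave *Med16* a value of 0.34 (standard error 0.0813, edgeR adjusted p = 0.00501). No single library ended the *Med16* calls against WT siGLO for Pds5a-KO siGLO, siPds5b or siStag2. For Pds5a-KO siGLO the *Med16* call was lost with replicate 2 (log2 fold change 0.32, edgeR adjusted p = 0.0366) or replicate 3 (0.37, edgeR adjusted p = 0.0169) left out of every group. For siStag1 against WT siGLO the *Med16* call was lost without replicate 2 or 3 of WT siGLO or replicate 2 or 3 of Pds5a-KO siStag1 (log2 fold change 0.30 to 0.31, edgeR adjusted p 0.0186 to 0.0211). For siPds5b against Pds5a-KO siGLO the *Med16* call was lost without replicate 1 or 3 of Pds5a-KO siGLO or replicate 3 of Pds5a-KO siPds5b (log2 fold change 0.25 to 0.34, edgeR adjusted p 0.0156 to 0.0543), and in a model of only the groups compared. The interaction for *Med16* was 0.43 (95% confidence interval 0.19 to 0.68, edgeR adjusted p = 0.034), which did not pass the threshold, so a different response to siPds5b in the 2 genotypes was not shown. Between the knockouts *Med16* was at 0.26 (edgeR adjusted p = 0.0188), also not called.

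*Med15*, the tail contact of several activators, had 844.7, 844.9 and 781.4 normalized counts in WT siGLO and 1239, 961.9 and 962.6 with siStag2, where replicate 1 was the highest. The groups did not overlap, and the *Med15* log2 fold change was 0.36 (standard error 0.108, edgeR adjusted p = 0.00969). The *Med15* call was lost without replicate 1, 2 or 3 of WT siGLO or replicate 1 of Pds5a-KO siStag2 (log2 fold change 0.22 to 0.37, edgeR adjusted p 0.0212 to 0.11), and with RLE normalization, with scaling by library size only and with at least 10 counts required in every library. In Pds5b-KO siGLO *Med15* had 952.1, 1075 and 984.3, with no call against WT siGLO (0.29 (edgeR adjusted p = 0.0462)). *Med23*, another tail contact of activators, had 1231, 1222 and 1345 in WT siGLO and 1029, 1036 and 1057 with siStag2. The libraries did not overlap, and the *Med23* log2 fold change was -0.28 (standard error 0.085, edgeR adjusted p = 0.00926). *Med23* was called in no other comparison, but every knockout library lay below every WT siGLO library. The WT siPds5b libraries, at 1035, 1102 and 1332, overlapped the knockout libraries, so genotype did not separate them. *Med23* had 1174, 1134 and 1130 in Pds5a-KO siGLO and 953.4, 1120 and 1045 with siStag1. The *Med23* call was lost without replicate 1, 2 or 3 of WT siGLO or replicate 1, 2 or 3 of Pds5a-KO siStag2 (log2 fold change -0.32 to -0.24, edgeR adjusted p 0.0108 to 0.0471), and with scaling by library size only and with no filter on low counts. *Med24* and *Med25*, the remaining tail genes, were called in no comparison, with group means of 1630 to 2003 and 1458 to 1633.

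**Figure D2:**
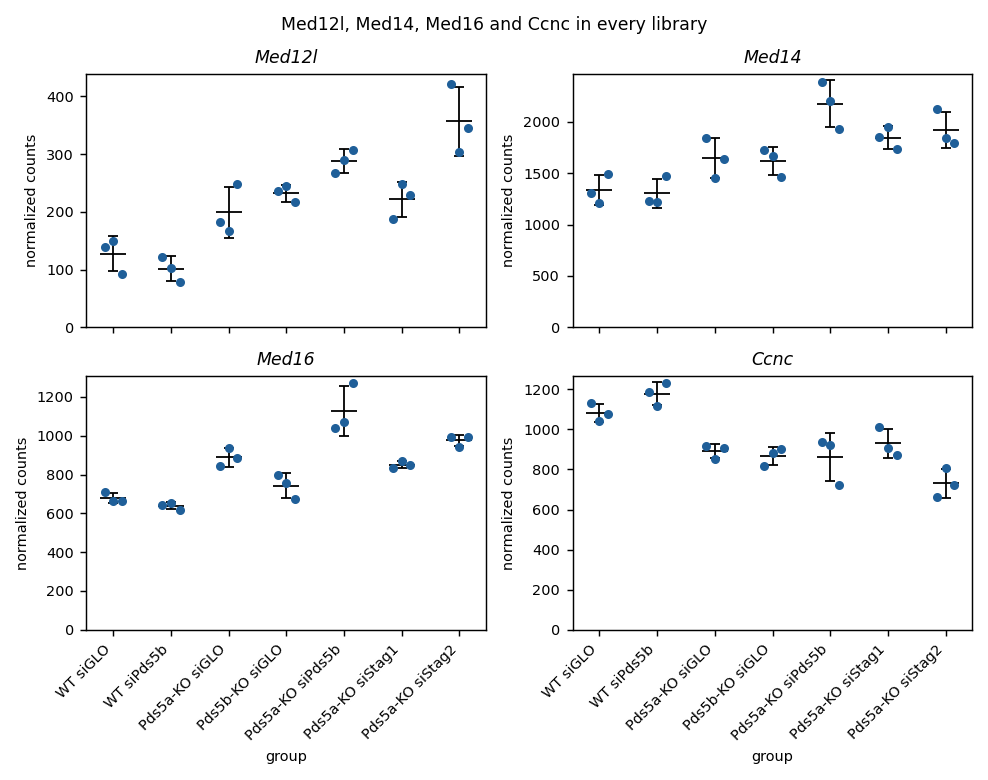
Normalized counts (vertical axis) of *Med12l*, *Med14*, *Med16* and *Ccnc* in every library by group (horizontal axis), with mean and SD. *Med16* averaged 679.2 in WT siGLO and 1128 with siPds5b in Pds5a-KO cells.

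In the kinase module, *Med12l*, the low-level paralogue of *Med12*, had 139.2, 149.8 and 92.62 normalized counts in WT siGLO, 122.3, 102.7 and 79.21 in WT siPds5b and 181.8, 166.5 and 248.7 in Pds5a-KO siGLO. It had 235.4, 244.3 and 216.5 in Pds5b-KO siGLO, and 267.3, 290.2 and 308 with siPds5b, 188, 247.8 and 229.1 with siStag1 and 421.6, 303.8 and 345.4 with siStag2 in Pds5a-KO cells. All 15 knockout libraries lay above all 6 WT libraries. The 2 highest libraries were siStag2 libraries. Against WT siGLO the *Med12l* log2 fold change was 0.65 (standard error 0.185, edgeR adjusted p = 0.00942) in Pds5a-KO siGLO. In Pds5b-KO siGLO the *Med12l* value was 0.88 (standard error 0.184, edgeR adjusted p = 0.000879) against WT siGLO. With siPds5b *Med12l* was at 1.19 (standard error 0.182, edgeR adjusted p = 1.23e-05) against WT siGLO. With siStag1 *Med12l* was at 0.81 (standard error 0.184, edgeR adjusted p = 0.00163) against WT siGLO. With siStag2 it was 1.50 (standard error 0.181, edgeR adjusted p = 6.67e-07) against WT siGLO, or 2.83-fold. Against Pds5a-KO siGLO, siStag2 gave *Med12l* a value of 0.84 (standard error 0.175, edgeR adjusted p = 0.00499).

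No single library ended the *Med12l* calls for Pds5b-KO siGLO, siPds5b or siStag2 against WT siGLO, but leaving replicate 3 out of every group ended that for Pds5b-KO siGLO (log2 fold change 0.75, edgeR adjusted p = 0.0118). For Pds5a-KO siGLO against WT siGLO the *Med12l* call was lost without replicate 1 or 3 of WT siGLO or replicate 1 or 3 of Pds5a-KO siGLO (log2 fold change 0.45 to 0.73, edgeR adjusted p 0.0111 to 0.0971), and with RLE normalization, with scaling by library size only, with at least 10 counts required in every library and in a model of only the groups compared. For siStag1 against WT siGLO the *Med12l* call was lost without replicate 3 of WT siGLO or replicate 2 of Pds5a-KO siStag1 (log2 fold change 0.62 to 0.72, edgeR adjusted p 0.0123 to 0.0196). For siStag2 against Pds5a-KO siGLO the *Med12l* call was lost without replicate 1 or 2 of Pds5a-KO siGLO or replicate 1 or 3 of Pds5a-KO siStag2 (log2 fold change 0.71 to 0.87, edgeR adjusted p 0.0132 to 0.05), and in a model of only the groups compared. siPds5b alone in WT cells gave *Med12l* -0.31 (edgeR adjusted p = 1), siPds5b against Pds5a-KO siGLO gave 0.53 (edgeR adjusted p = 0.0399), and the interaction was 0.85 (edgeR adjusted p = 0.0729); none of these was called. siStag2 against siStag1 gave 0.69 (edgeR adjusted p = 0.0333) for *Med12l*, which edgeR did not call and DESeq2 did (DESeq2 adjusted p = 0.00802). Exons of *Med12l* share 1948 bases with *Igsf10* on the other strand, and without strand their reads cannot be told apart; *Igsf10* was at 0.593 with siPds5b and 0.422 with siStag2 in log2 fold change against WT siGLO, and at -0.102 in Pds5a-KO siGLO.

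*Med12*, the subunit that activates the kinase, had 1239, 1401 and 1335 normalized counts in WT siGLO and 1726, 1597 and 1537 in Pds5b-KO siGLO. The groups did not overlap, and the *Med12* log2 fold change was 0.29 (standard error 0.082, edgeR adjusted p = 0.00931). The *Med12* call was lost without replicate 1, 2 or 3 of WT siGLO or replicate 1 or 2 of Pds5b-KO siGLO (log2 fold change 0.26 to 0.34, edgeR adjusted p 0.0105 to 0.0422), and with scaling by library size only and in a model of only the groups compared. With siPds5b in Pds5a-KO cells *Med12* had 1532, 1366 and 1585, at 0.17 (edgeR adjusted p = 0.0874) against WT siGLO, not called. Per kilobase, *Med12* stood 18 ± 5.07 times above *Med12l* in WT siGLO and 22.6 ± 5.3 times in WT siPds5b. In the knockout groups this ratio was 11.9 ± 1.91 (Pds5a-KO siGLO), 11.6 ± 0.675 (Pds5b-KO siGLO), 8.61 ± 0.851 (siPds5b), 10.6 ± 1.38 (siStag1) and 6.78 ± 0.313 (siStag2). Thus *Med12* remained the more abundant paralogue in every group, and the ratio was lowest with siStag2.

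*Med13l*, a paralogue of the subunit that joins the kinase to the core, had 1499, 1450 and 1398 normalized counts in WT siGLO, 1667, 1460 and 1690 in Pds5a-KO siGLO and 2380, 2129 and 1825 in Pds5b-KO siGLO. Pds5b-KO libraries were the highest of the 3 groups, without overlap. In Pds5b-KO against WT siGLO the *Med13l* log2 fold change was 0.54 (standard error 0.103, edgeR adjusted p = 0.00037). Between the knockouts *Med13l* was at -0.39 (standard error 0.103, edgeR adjusted p = 0.00539). No single library ended the *Med13l* call against WT siGLO. Between the knockouts the *Med13l* call was lost without replicate 2 of Pds5a-KO siGLO or replicate 1 or 2 of Pds5b-KO siGLO (log2 fold change -0.40 to -0.32, edgeR adjusted p 0.0172 to 0.0417), and in a model of only the groups compared. *Med13* had 1602, 1326 and 1432 in WT siGLO, 1410, 1158 and 1619 in Pds5a-KO siGLO and 2120, 1891 and 1813 in Pds5b-KO siGLO. Its Pds5b-KO libraries were likewise above both other groups. In Pds5b-KO against WT siGLO the *Med13* log2 fold change was 0.42 (standard error 0.11, edgeR adjusted p = 0.00613). Between the knockouts *Med13* was at -0.48 (standard error 0.11, edgeR adjusted p = 0.00216). The *Med13* call against WT siGLO was lost without replicate 2 or 3 of WT siGLO or replicate 1 or 2 of Pds5b-KO siGLO (log2 fold change 0.36 to 0.43, edgeR adjusted p 0.018 to 0.0354). Between the knockouts the *Med13* call was lost without replicate 2 of Pds5a-KO siGLO or replicate 1 of Pds5b-KO siGLO (log2 fold change -0.43 to -0.37, edgeR adjusted p 0.015 to 0.0187). The per-kilobase ratio of *Med13* to *Med13l* was 1.43 ± 0.113 in WT siGLO and 1.32 ± 0.0856 in Pds5b-KO siGLO, but 0.884 in WT siGLO per kilobase of the longest transcript, so which paralogue is the more abundant cannot be told.

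**Figure D3:**
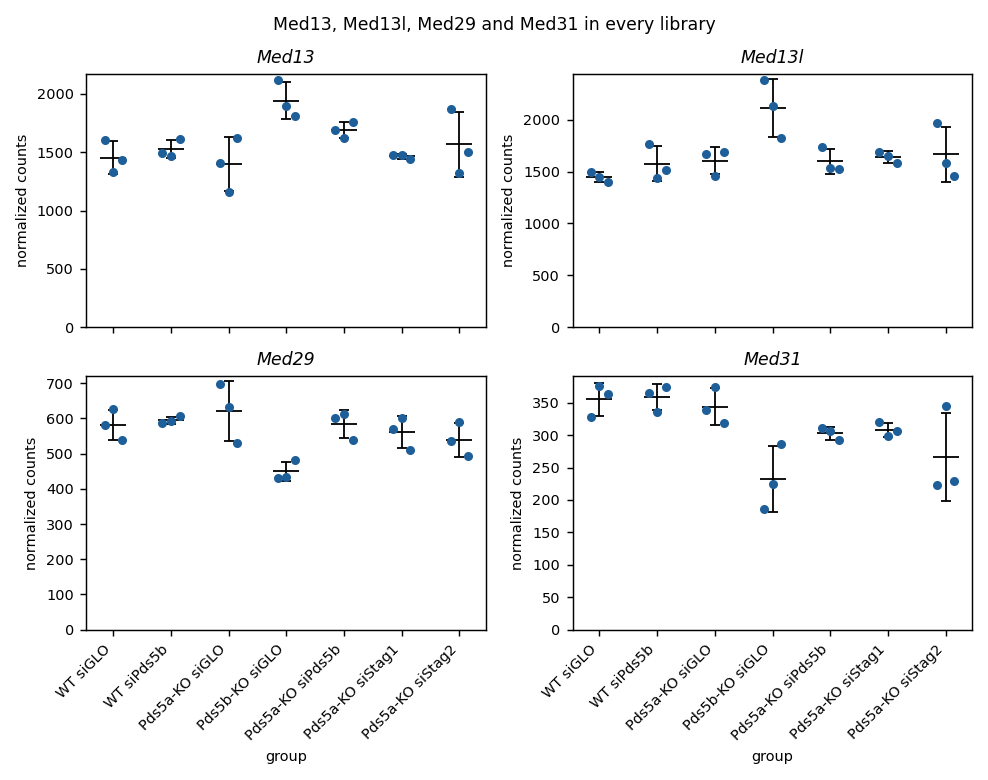
Normalized counts (vertical axis) of *Med13*, *Med13l*, *Med29* and *Med31* in every library by group (horizontal axis), with mean and SD. *Med13l* averaged 1449 in WT siGLO and 2111 in Pds5b-KO siGLO, and *Med31* 355.6 and 232.2.

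*Ccnc*, the cyclin of the kinase, had 1131, 1043 and 1077 normalized counts in WT siGLO, 1189, 1117 and 1232 in WT siPds5b, 917.2, 854.8 and 906 in Pds5a-KO siGLO and 816, 883.3 and 902.7 in Pds5b-KO siGLO. It had 939.4, 921.5 and 724.6 with siPds5b, 1012, 909 and 873 with siStag1 and 662.7, 807.1 and 720.4 with siStag2 in Pds5a-KO cells. Every knockout library lay below every WT library, and siStag2 held the lowest mean. With siStag2 the *Ccnc* log2 fold change was -0.57 (standard error 0.093, edgeR adjusted p = 3.19e-05) against WT siGLO. With siPds5b it was -0.33 (standard error 0.0921, edgeR adjusted p = 0.00535) against WT siGLO. No single library ended the *Ccnc* call for siStag2. For siPds5b against WT siGLO the *Ccnc* call was lost without replicate 1 or 3 of WT siGLO or replicate 3 of Pds5a-KO siPds5b (log2 fold change -0.34 to -0.22, edgeR adjusted p 0.014 to 0.0526), and in a model of only the groups compared. *Ccnc* was not called in Pds5a-KO siGLO (-0.28 (edgeR adjusted p = 0.0243)), in Pds5b-KO siGLO (-0.32 (edgeR adjusted p = 0.0104)) or with siStag1 (-0.22 (edgeR adjusted p = 0.0733)), all against WT siGLO. In Pds5b-KO siGLO it was called in 5 of 11 alternatives, DESeq2 among them (lowest adjusted p 0.00761). Another of the 5 was the threshold of 0.05, which its adjusted p by edgeR already met. Within Pds5a-KO, siStag2 gave *Ccnc* -0.29 (edgeR adjusted p = 0.055) against siGLO and -0.35 (edgeR adjusted p = 0.0445) against siStag1, neither of them called. Exons of *Ccnc* share 276 bases with *Tstd3* on the other strand, and their reads cannot be told apart without strand.

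The kinases *Cdk8* and *Cdk19* were called in no comparison. *Cdk8* averaged 1881 ± 51.4 normalized counts in WT siGLO, 1761 ± 100 in Pds5a-KO siGLO and 1994 ± 119 in Pds5b-KO siGLO, and its log2 fold change between the knockouts was -0.18 (edgeR adjusted p = 0.0585). *Cdk19* averaged 427.6 ± 34.7 in WT siGLO and was lowest with siStag1, at 357.7 ± 24.9 (-0.26 (edgeR adjusted p = 0.036) in log2 fold change against WT siGLO). Per kilobase *Cdk8* stood 2.63 ± 0.233 times above *Cdk19* in WT siGLO, or 6.59 ± 0.584 times per kilobase of the longest transcript. Group means of the first ratio ran from 2.44 (WT siPds5b) to 3.08 (siStag1).

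Summed over the 33 genes, normalized counts stayed near 31735 ± 120, the WT siGLO value, with group means from 30946 (siStag2) to 32275 (Pds5b-KO siGLO). Kinase-module sums were 9812.7, 9077.5 and 8673.9 in Pds5b-KO siGLO, against 7988.9, 7654.3 and 7597 in WT siGLO, with no overlap. Head sums were 7292, 7350.8 and 8082.7 against a WT siGLO mean of 8421 ± 42.4, so replicate 3 of Pds5b-KO lay nearest to WT. With siStag2 head sums were 7098.4, 8040.2 and 7222.9, the lowest mean of any group. Those with siPds5b (8188.1, 8182.8 and 7046.5) and siStag1 (8284.1, 7987.3 and 7835.6) in Pds5a-KO cells also lay below all 3 WT siGLO libraries. In Pds5b-KO siGLO against WT siGLO the median log2 fold change was -0.171 over head genes, -0.175 over middle genes, 0.0515 over tail genes and 0.29 over kinase-module genes, and in Pds5a-KO against Pds5b-KO the head and kinase medians were 0.167 and -0.21.

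Gene length moved with these differences. In Pds5b-KO siGLO against WT siGLO the median log2 fold change was -0.149 over the 2817 genes whose longest transcript was shortest (66 to 1915 bases) and 0.152 over the 2814 with the longest (5186 to 123179 bases). Among members the 9 in the shortest class had a median of -0.211 and the 8 in the longest 0.281. With siStag2 against WT siGLO these values were -0.11 and 0.121 over all genes and -0.22 and 0.121 over members. With siStag2 against Pds5a-KO siGLO they were -0.123 and 0.149 over all genes and -0.203 and 0.0542 over members. In Pds5a-KO siGLO against Pds5b-KO siGLO the class medians were 0.187 and -0.153 over all genes and 0.167 and -0.168 over members. The Spearman correlation of length with log2 fold change over 14079 genes was 0.308 with siStag2 and 0.211 with siPds5b against Pds5a-KO siGLO, 0.232 in Pds5b-KO siGLO and 0.158 with siStag2 against WT siGLO, and -0.235 between the knockouts. Over the 33 members these values were 0.477, 0.531, 0.575, 0.447 and -0.49. Against WT siGLO they were 0.111 over all genes and 0.461 over members with siPds5b, and 0.0826 and 0.397 with siStag1. With siStag1 against Pds5a-KO siGLO they were 0.204 and 0.373. With siPds5b against WT siGLO the shortest and longest class had medians of -0.0841 and 0.0755 over all genes. Over members these were -0.158 and 0.158. Within Pds5b-KO siGLO the library medians of longest minus shortest genes were 0.471, 0.338 and 0.105 for replicates 1 to 3, against 0.0141, -0.0367 and 0.0243 in WT siGLO. With siStag2 they were 0.421, 0.0623 and 0.196. The 6 members of 3824 to 5186 bases had medians of opposite sign to all genes. These were -0.17 against 0.0386 in Pds5b-KO siGLO and -0.163 against 0.0488 with siStag2, both compared with WT siGLO. They were -0.0914 against 0.0424 with siStag2 compared with Pds5a-KO siGLO, and 0.0881 against -0.0169 between the knockouts. In those comparisons signs were also opposite for the 6 members of 2848 to 3824 bases and alike for the 4 of 1915 to 2848. Kinase-module genes are mostly long and head genes mostly short, and module was not tested apart from length. Whether RNA quality differed was not tested. In Pds5a-KO siGLO against WT siGLO the medians of the shortest and longest class were 0.0132 and -0.0215 over all genes. Over members they were -0.0371 and 0.114.

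Cell-state markers also differed between the groups. Summed normalized counts of 8 pluripotency markers, of which *Tdgf1* or *Dppa5a* was the most abundant, were 145600, 141600 and 135700 in WT siGLO and 148600, 143800 and 134600 in WT siPds5b. They were 119900, 114300 and 107300 in Pds5a-KO siGLO and 99280, 107100 and 115200 in Pds5b-KO siGLO. In Pds5a-KO cells they were 100400, 95230 and 91090 with siPds5b, 108000, 101800 and 103600 with siStag1, and 77870, 93180 and 90200 with siStag2. Every knockout library lay below every WT library. Against WT siGLO, edgeR called 5 of the 8 lower in Pds5a-KO siGLO and 5 in Pds5b-KO siGLO. It called 6 lower with siPds5b, 5 with siStag1 and 8 with siStag2. Over all tested genes 8.12%, 8.57%, 14.6%, 9.37% and 13.9% were called lower in the same order. Called higher were 9.63%, 9.64%, 17.4%, 10.6% and 16.2%, and the marker lists below stand beside the same shares. Against Pds5a-KO siGLO, 6 of the 8 were called lower with siPds5b, 1 with siStag1 and 6 with siStag2. Over all tested genes 3.59% were called lower with siPds5b and 1.27% with siStag2. With siStag1 0.0936% were called in either direction. Trophoblast markers, with *Gata3* or *Cdx2* the most abundant, summed to 31.79, 27.04 and 54.58 in WT siGLO, 98.53, 144 and 161 in Pds5a-KO siGLO and 127.7, 151.5 and 162.1 in Pds5b-KO siGLO; both of those tested were called higher in each knockout. The 7 fibroblast markers, with *Col1a1* the most abundant, summed to 1068, 1123 and 1493 in WT siGLO and 1736, 1738 and 2166 in WT siPds5b. They summed to 333.2, 939 and 1396 in Pds5a-KO siGLO and 305.1, 342 and 431.9 in Pds5b-KO siGLO. Replicate 1 of Pds5a-KO siGLO stood apart from replicates 2 and 3, and replicate 1 was also the lowest with siPds5b (442.2, 1017 and 1305) and siStag1 (295.5, 648.9 and 921.2). Of the 5 that were tested, 2 were called lower in Pds5b-KO siGLO, 1 with siPds5b, 2 with siStag1 and 1 with siStag2, and none in Pds5a-KO siGLO. Of 3 neuroectoderm markers (most abundant *Nes*) 2 were lower in Pds5a-KO siGLO, 2 higher in Pds5b-KO siGLO and 2 lower with siPds5b, while siStag1 and siStag2 each had 1 higher and 1 lower. Of 3 mesendoderm markers (most abundant *Eomes*) 1 was called lower in each of the 5 comparisons with WT siGLO, and no primitive endoderm marker (most abundant *Gata4*) was called. Primitive endoderm sums were highest in replicate 1 of every group but siStag2 (430.4, 462 and 499.7). They were 824.9, 392 and 464.7 in WT siGLO and 1233, 570.5 and 537.8 in Pds5a-KO siGLO. No listed marker had 0 counts in all 3 libraries of a group, but some were near the floor. In Pds5b-KO siGLO raw counts were 0, 0 and 1 for *Lum* and 0, 0 and 2 for *Elf5*. With siStag2 those of *Postn* were 0, 0 and 1. Whether the Mediator differences followed cell state was not tested.

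Mediator acts with RNA polymerase II, the general transcription factors, the pausing and elongation factors, and cohesin, so genes of 4 such lists were counted in the same tests. Against WT siGLO, 8.47% of their 59 tested genes were called in Pds5a-KO siGLO, 23.7% in Pds5b-KO siGLO, 35.6% with siPds5b, 15.3% with siStag1 and 33.9% with siStag2. Over all tested genes these shares were 17.8%, 18.2%, 32%, 20% and 30.1%, and targeted genes are among the 59. Among 12 polymerase II subunits, 1 was called lower in Pds5a-KO siGLO, 1 higher and 2 lower in Pds5b-KO siGLO, 4 lower with siPds5b, 1 lower with siStag1 and 5 lower with siStag2, each against WT siGLO. These were 8.33%, 25%, 33.3%, 8.33% and 41.7% of the 12, against 17.8%, 18.2%, 32%, 20% and 30.1% of all tested genes. *Polr2f* had 1727, 1775 and 1761 normalized counts in WT siGLO and 1166, 1126 and 1042 in Pds5a-KO siGLO. Those libraries did not overlap, and the *Polr2f* log2 fold change was -0.66 (standard error 0.11, edgeR adjusted p = 8.96e-05). Among called subunits it was the largest with siPds5b too, at -0.79 (edgeR adjusted p = 4e-06), and with siStag2, at -0.81 (edgeR adjusted p = 3.86e-06). Of those called in Pds5b-KO siGLO the largest was *Polr2e*, at -0.41 (edgeR adjusted p = 6.91e-05). Between the knockouts 4 were higher and 3 lower, or 58.3% of the 12 against 19.2% of all tested genes, led by *Polr2a* at -0.65 (edgeR adjusted p = 8.27e-05).

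Of 18 general transcription factor genes, against WT siGLO, 1 was lower in Pds5a-KO siGLO, 3 in Pds5b-KO siGLO, 6 with siPds5b, 2 with siStag1 and 5 with siStag2, and 0 were higher by edgeR. These were 5.56%, 16.7%, 33.3%, 11.1% and 27.8% of the 18, against 17.8%, 18.2%, 32%, 20% and 30.1% of all tested genes. *Gtf2f1* was at -0.49 (edgeR adjusted p = 2.44e-05) in Pds5b-KO siGLO. With siStag2 *Gtf2f1* was at -0.45 (edgeR adjusted p = 3.38e-05). Of 19 pausing and elongation factor genes, called higher and lower were 1 and 2 in Pds5a-KO siGLO, 2 and 3 in Pds5b-KO siGLO, 2 and 6 with siPds5b, 2 and 2 with siStag1, and 3 and 4 with siStag2. In the same order 15.8%, 26.3%, 42.1%, 21.1% and 36.8% of the 19 were called, beside the same shares of all tested genes. *Ell2* was at -0.57 (edgeR adjusted p = 3.75e-06) in Pds5a-KO siGLO. *Aff1* was at -1.07 (edgeR adjusted p = 0.00012) in Pds5b-KO siGLO. *Supt6* was at 0.65 (edgeR adjusted p = 1.06e-06) with siPds5b, the largest called increase of that list. Of 10 tested genes of a list of cohesin subunits, cohesin's loader and regulators, and *Ctcf*, against WT siGLO, 0 were called in Pds5a-KO siGLO by edgeR, 2 were higher and 1 lower in Pds5b-KO siGLO, and 3, 2 and 3 were lower with siPds5b, siStag1 and siStag2, targeted genes among them. In the same order 0%, 30%, 30%, 20% and 30% of the 10 were called, beside the same shares of all tested genes. Within Pds5a-KO, of all 59 genes 1 was called with siPds5b, 1 with siStag1 and 4 with siStag2, or 1.69%, 1.69% and 6.78%, against 7.59%, 0.0936% and 2.24% of all tested genes. Between the knockouts 19 of 59 were called, or 32.2%, against 19.2% of all tested genes. Chromosome 8 holds 5 of the 59 genes (*Polr2c*, *Ctcf*, *Mau2*, *Gtf2e2* and *Ell*), all 5 of them called lower in Pds5a-KO against Pds5b-KO. Of the 5 list genes called higher in Pds5b-KO siGLO against WT siGLO, 4 lie on that chromosome (*Polr2c*, *Ctcf*, *Mau2* and *Ell*), so a chromosome-wide shift and regulation of these genes cannot be told apart. The median log2 fold change of chromosome 8 genes against WT siGLO was 0.297 in Pds5b-KO siGLO and -0.196 in Pds5a-KO siGLO.

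Promoter sequence was read for the 2 members other than *Med12l* that were called most often, as the 250 bases before the start given in the RefSeq table, build GRCm38.p6, on both strands. The whole *Med12l* window lay inside an annotated exon and is not printed. Among 27025 promoters GGGCGG was present in 32.9%, CCGGAAG in 7.05% and TATAAA in 13%. Among 28 members with a window they were present in 18, 4 and 3. *Med14* (chrX:12762074-12762223, minus strand, the 150 bases outside exons) carried 2 GGGCGG and 1 CCGGAAG, and *Med16* (chr10:79908939-79909188, minus strand) carried 1 TATAAA in a window of 33.2% G and C. Capitals mark a match on either strand, and a match describes the sequence only.
Med14: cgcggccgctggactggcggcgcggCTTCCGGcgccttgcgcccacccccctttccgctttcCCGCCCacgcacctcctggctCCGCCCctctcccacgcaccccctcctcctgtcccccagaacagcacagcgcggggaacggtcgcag
Med16: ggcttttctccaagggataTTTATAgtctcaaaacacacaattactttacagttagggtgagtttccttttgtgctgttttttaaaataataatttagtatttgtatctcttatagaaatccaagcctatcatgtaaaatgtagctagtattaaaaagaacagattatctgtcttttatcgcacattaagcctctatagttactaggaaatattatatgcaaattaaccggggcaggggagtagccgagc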

How the data were processed

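Gene counts were those deposited by the authors, 21 tables of 23412 symbols made from reads aligned to mm10 with STAR; the read counter, annotation and strand setting were not given in the sources used here. Counts were scaled by TMM and filtered by expression over the 7 groups, which left 14963 genes, and tested with edgeR 4.0.16 quasi-likelihood in R 4.3.3, with Benjamini-Hochberg adjustment over all tested genes and a threshold of 0.01. DESeq2 1.42.0 was the second tool. Normalized counts are TMM-scaled to the mean effective library size of 19816922. Standard errors were the log2 fold change over the square root of F. Figures used matplotlib 3.10.9 in Python 3.11.15. GENCODE M21 matched 21777 symbols (93%) and all 33 members, and gave exon lengths and overlaps.

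Members given by library were up to 3 called genes with the largest increase and up to 3 with the largest decrease in each comparison; the 7 kinase-module genes, *Med1*, *Med14* and *Med15* were also given by library or mean. Other called members, and uncalled values of members named elsewhere, were added after the values were seen. Members, marker lists (pluripotency, fibroblast, primitive endoderm, neuroectoderm, mesendoderm, trophoblast) and the 4 pathway lists were chosen with earlier results of these data known. Chromosome and length medians were also examined after the values were seen.

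Libraries with the same replicate number shared variation in 4 comparisons, where every pair had a residual correlation above 0.1 over 12029 genes: siPds5b against siGLO in WT (0.336 to 0.521) and siPds5b (0.336 to 0.688), siStag1 (0.175 to 0.624) and siStag2 (0.135 to 0.236) against siGLO in Pds5a-KO. A block for replicate changed no call of a member in these 4. Alternatives were the replicate block, DESeq2, RLE, library size only, no filter, at least 10 counts in every library, only the groups compared, a threshold of 0.05 and leaving out each replicate number. Leaving out single libraries was added after the data were seen.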

Additional observations from a re-analysis of the deposited data

How the results depend on the processing

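Called members were counted again under each alternative. In Pds5a-KO siGLO against WT siGLO the 2 called became 1 with RLE normalization (17.8%) and 1 with scaling by library size only (17.5%). They became 1 with at least 10 counts in every library (18.4%) and 1 in a model of only the groups compared (12.7%). The count was 4 at a threshold of 0.05 (28.2%), and leaving out libraries gave 0 to 2 (8.39% to 17%). In Pds5b-KO siGLO against WT siGLO the 8 became 13 at 0.05 and 2 to 8 without libraries. With siPds5b against WT siGLO the 6 became 10 at 0.05 (44.7%) and 3 to 6 without libraries (20.5% to 29.7%). With siStag1 against WT siGLO the 3 became 7 at 0.05 (31.2%) and 1 to 4 without libraries (11% to 16.5%). With siStag2 against WT siGLO the 8 became 3 to 7 without libraries.

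Within Pds5a-KO, the 3 called with siPds5b became 0 by edgeR in a model of only the groups compared (3.66%). Without libraries they became 0 to 2 (2.58% to 6.24%). The 1 called with siStag2 became 2 with DESeq2 (6.09%) and 0 by edgeR in a model of only the groups compared (0.701%). It became 2 at 0.05 (7.99%) and 0 to 1 without libraries (0.205% to 2.47%). Between the knockouts the 8 became 1 in a model of only the groups compared (12.8%) and 0 to 8 without libraries (7.6% to 17.7%). In siStag2 against siStag1 the 0 by edgeR became 1 with DESeq2 (2.04%) and 2 at 0.05 (2.39%). In the interaction the 0 by edgeR became 1 at 0.05 (3.86%). Fits of fewer libraries hold fewer samples; otherwise the cause was not tested.

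Of 39 called pairs of member and comparison, 19 passed in all alternatives other than leave-one-out and 7 in all 11. Those 7 were *Med13l* in Pds5b-KO siGLO, *Med12l*, *Med14* and *Med16* with siPds5b, and *Med12l*, *Med16* and *Ccnc* with siStag2, all against WT siGLO. No sign reversed. Adding the replicate block kept all 39 and left the counts of the 4 paired comparisons at 0, 3, 0 and 1. There 0.02%, 10.5%, 0.321% and 4.52% of all tested genes were called. It gave 9, 7, 4 and 9 against WT siGLO for Pds5b-KO siGLO, siPds5b, siStag1 and siStag2, with no other count changed. In these 22.2%, 36%, 23.5% and 33.7% of all tested genes were called.

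Of 97 called pairs of pathway gene and comparison, 73 remained in a model of only the groups compared, 59 without replicate 1, 59 without replicate 2 and 63 without replicate 3. The pathway genes given with a log2 fold change passed in every alternative.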
